A study of Mus musculus with 6 samples.

Results

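The clusters described here lie just past the annotated 3' ends of genes in lists of NOVA1 and NOVA2 binding in mouse cortex. A cluster was included if it touched no annotated gene on its strand and most of its nucleotides lay within 10 kb downstream of a same-strand gene. This rule gave 1763 of 46579 clusters, 581 of 9988 in the NOVA1 list (5.82%, 95% Wilson interval 5.37 to 6.29) and 1182 of 36591 in the NOVA2 list (3.23%, 3.05 to 3.42). They are called downstream clusters, and the nearest same-strand gene before each is called its upstream gene. A further 25 NOVA1 and 31 NOVA2 clusters were mostly in such sequence but touched a gene, and were left out.

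The lists came from HITS-CLIP, in which ultraviolet light crosslinks a protein to RNA in intact tissue and the bound fragments are recovered with an antibody and sequenced. The tissue was cortex of wild-type CD1 mice at embryonic day 18.5, and the groups differed only in the protein precipitated, NOVA1 or NOVA2. There were 3 libraries per protein, and the deposited tag counts were pooled over them. A tag is a read fragment after removal of duplicates. The authors set their minimum on peak height, the depth of tags at the summit of a cluster, and the deposited value may be that height rather than the number of tags. It is called the tag count here, and sums over clusters may then be sums of heights. With pooled counts there was no spread between replicates to compare with, so no difference below was tested and the intervals cover counting error only. Of 5 annotated neuronal marker genes, 5 held a cluster in each list. Of 7 markers of microglia, vessels and blood, 1 (Hbb-b1) did in the NOVA1 list and 0 did in the NOVA2 list, and of 8 markers of glia and progenitors 2 (Olig1 and Pax6) and 1 did.

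NOVA1 and NOVA2 are closely related neuronal RNA-binding proteins best known as splicing regulators. They bind YCAY, in which Y is C or U, and they contact introns as well as the 3' untranslated regions (3' UTRs) of mature messages. The 3' UTR follows the stop codon and ends where the transcript is cleaved and polyadenylated, usually a short way after a poly(A) signal, AAUAAA or a close variant. Many genes have several such ends, and brain transcripts often use distal ones, giving long 3' UTRs. A downstream cluster is therefore where an unannotated longer 3' UTR of the upstream gene would be bound. The lists do not show from which transcript a tag came, and a separate transcript or RNA past the cleavage site would look alike.

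The sequences below lie inside some of the strongest downstream clusters without further copies in the genome. The lists do not give the crosslinked position within a cluster, so these stretches are not shown to be the bound ones. Each is the 30 nt window with the most YCAY in the cluster, on the RNA strand, from the mm9 genome, with YCAY in capitals (overlapping motifs run together and T stands for U). The windows were picked for their motifs, so their richness is not a finding. For scale, YCAY was counted in all 30 nt windows laid end to end, which were not picked. In sequence 200 to 500 nt from the downstream clusters, 35.8% held 1 or more, 8.21% held 2 or more and 1.29% held 3 or more. Inside the clusters the shares were 62.8%, 24.6% and 7.43%. They do not say how often a richest window reaches such counts.

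Slc8a1 (chr17:81784648-81784677, minus strand): tTCATCACacagcgcaTCATagtaaaTCAT
Mest (chr6:30700531-30700560, plus strand): gacTCACCACatatTCATCATCATatCCAT
Bmpr2 (chr1:59931255-59931284, plus strand): cagcttcctcttaaTCATaaTCATgtTCAT
Lnpep (chr17:17659353-17659382, minus strand): tacattTCATattgtctcttcttCCACCAC
Sox11 (chr12:28021803-28021832, minus strand): agtactgaagccaagCCACttcCCATTCAT
Kcnma1 (chr14:24115362-24115391, minus strand): cacTCACccttacttcTCATtTCATtCCAT
Dlg2 (chr7:99596166-99596195, plus strand): TCATttctcCCACTCATctcctcTCATCAC
Grm3 (chr5:9484263-9484292, minus strand): tctgttcagTCACCATaTCATatTCACCAC
Atp8a2 (chr14:60262301-60262330, minus strand): tgttCCATgaccagTCACcCCATctgTCAT

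In Slc8a1 and in Bmpr2 the same window was the richest in the strongest NOVA1 and in the strongest NOVA2 cluster of the gene. In both genes these clusters overlap, so this follows largely from their common sequence and is not a finding. Over all downstream clusters, 98.1% in the NOVA1 list and 98.9% in the NOVA2 list held at least 1 YCAY. The NOVA1 clusters had 31.7 YCAY per 1000 start positions against 16.4 in flanks 200 to 500 nt away, a fold of 1.94 (1.84 to 2.03). The NOVA2 clusters had 37.8 against 17.4, a fold of 2.17 (2.10 to 2.24). These folds lay between those of 3' UTR clusters (1.67 for NOVA1 and 1.84 for NOVA2) and those of intron clusters (3.15 and 2.58) or intergenic clusters (2.60 and 2.55). NOVA1 clusters that overlapped a NOVA2 cluster had a fold of 2.03 (1.92 to 2.14), and those without overlap 1.61 (1.44 to 1.79). In the NOVA2 list the order was the opposite, 1.98 (1.88 to 2.09) with overlap and 2.36 (2.26 to 2.46) without.

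The tag counts of the downstream clusters summed to 19126 for NOVA1 and 46226 for NOVA2. A cluster had a median of 16 NOVA1 tags (quartiles 12 and 28, highest 980) or 18 NOVA2 tags (13 and 34, highest 919), and a median width of 132 or 118 nt. Median tag counts in 3' UTR clusters were 18 and 20, and in intron clusters 15 and 18. The upstream genes numbered 601 over both lists, and 506 of them were protein-coding. Protein-coding genes lay upstream of 521 NOVA1 clusters (89.7%, 86.9 to 91.9) and 975 NOVA2 clusters (82.5%, 80.2 to 84.5). The remainder followed microRNA genes (20 NOVA1 and 70 NOVA2 clusters), lincRNAs (9 and 43), processed transcripts (10 and 35), snoRNAs (13 and 22), pseudogenes (7 and 25) and a few other small RNAs.

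Downstream clusters were unevenly spread over genes. Overlapping clusters of the lists were counted separately here, so a position with a cluster in each list counts for both. A single cluster followed 290 genes, while 311 genes had 2 or more. The 97 genes with 5 or more held 920 of the 1763 clusters, and 37 genes had 10 or more. Among the 601 upstream genes, 230 had clusters in both lists, 39 in the NOVA1 list alone and 332 in the NOVA2 list alone. Of the 506 protein-coding upstream genes, 63 (12.5%) had more NOVA1 than NOVA2 clusters and 88 (17.4%) had as many of each. The NOVA2 list was the longer one, with 36591 clusters against 9988. Such counts were not made over all genes or for other classes, so these counts by list have no background and are not read further.

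The number of downstream clusters fell with distance from the annotated end. The sequence that can hold such a cluster also shrinks with distance, because clusters that touch a gene were left out and each went to its nearest upstream gene. The counts were not divided by that sequence, so its part in the fall was not tested. The median distance, from the last annotated nucleotide of the upstream gene to the nearest nucleotide of the cluster, was 2379 nt for NOVA1 (95% interval of the median 2077 to 2636, quartiles 919 and 4201). It was 2595 nt for NOVA2 (2428 to 2803, quartiles 1193 and 4929). In the first kb there were 158 NOVA1 and 249 NOVA2 clusters (27.2% and 21.1%), and between 9 and 10 kb there were 14 and 38 (2.41% and 3.21%). Within 5 kb lay 81.9% of the NOVA1 and 75.7% of the NOVA2 clusters. Just outside the limit, between 10 and 11 kb, there were 6 and 25 further clusters, with median tag counts of 14.5 and 15, against 20 and 21.5 between 9 and 10 kb. Clusters after genes that were not protein-coding lay at a median of 2994 nt for NOVA1 (60 clusters) and 3364 nt for NOVA2 (207 clusters).

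**Figure D1:**
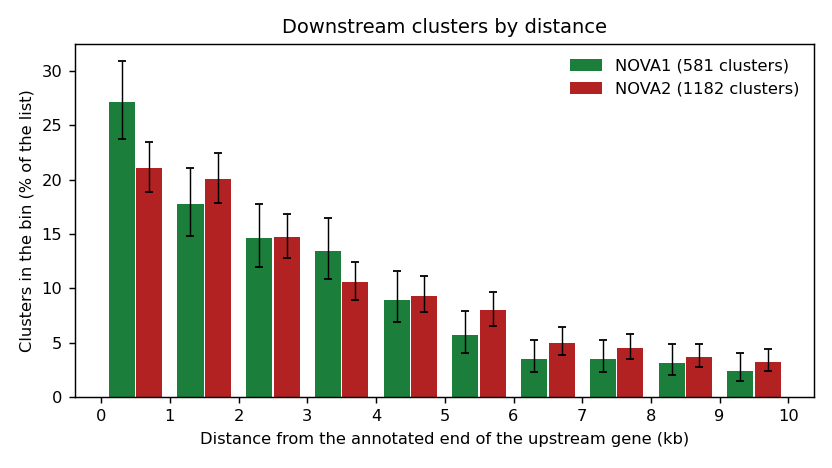
Share of the downstream clusters of each list (%) in bins of 1 kb from the annotated end of the upstream gene, with 95% Wilson intervals as error bars. The share fell from 27.2% (NOVA1, green) and 21.1% (NOVA2, red) in the first bin to 2.41% and 3.21% in the last. Shares were not divided by the sequence available in each bin.

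Some other features of the annotation bear on which gene a cluster was given to. A gene on the opposite strand overlapped 44 NOVA1 (7.57%) and 102 NOVA2 (8.63%) downstream clusters. The next gene on the same strand began within 10 kb after 73 (12.6%) and 155 (13.1%) of them. For 11 NOVA1 and 28 NOVA2 clusters, after 12 genes, that next gene carried the same name as the upstream gene, so these clusters lay between separate annotation entries of 1 gene name. This was the case at Pgap1, Atf7, Tmem132b and Scn8a. No further copy of the sequence was found for 530 NOVA1 (91.2%) and 1043 NOVA2 (88.2%) downstream clusters, a copy being a match somewhere else of 90% or more identity that covers 50% or more of the sequence.

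Next, the lists were compared with each other. Of the NOVA1 downstream clusters, 445 (76.6%, 73.0 to 79.9) overlapped a NOVA2 cluster on their strand by 1 nt or more, against 80.1% of all NOVA1 clusters. Of the NOVA2 downstream clusters, 449 (37.99%, 35.3 to 40.8) overlapped a NOVA1 cluster, against 22.1% of all NOVA2 clusters. For NOVA2 this share lay between that of 3' UTR clusters (64.5%, 63.1 to 65.9) and those of intron clusters (14.1%, 13.7 to 14.5) and intergenic clusters (16.4%, 15.0 to 17.8). For NOVA1 it was near that of 3' UTR clusters (73.9%, 72.5 to 75.3) and below those of intron clusters (95.5%) and intergenic clusters (84.0%). The NOVA2 share was 41.4% (38.4 to 44.6) after protein-coding genes and 21.7% (16.7 to 27.8) after other genes. It was 47.4% (41.3 to 53.6) in the first kb and 28.6% (23.7 to 34.1) between 5 and 10 kb.

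Overlapping clusters had more tags. Their median was 19 NOVA1 tags against 12 without overlap, and 31 NOVA2 tags against 15. With a minimum of 20 tags in both lists the shares were 79.8% (NOVA1) and 35.4% (NOVA2), inside the intervals above. A higher minimum for NOVA2 alone moved them. With only NOVA2 clusters of at least 25 tags kept, about the ratio of unique tags between the proteins, 50.3% of NOVA1 and 62.4% of NOVA2 downstream clusters overlapped. At that threshold the NOVA2 share was 87.2% in 3' UTRs, 34.7% in introns and 39.98% in intergenic sequence, so the downstream clusters stayed between the classes.

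The ratio of NOVA1 to NOVA2 tags could be read where exactly 1 cluster of each list overlapped. There were 357 such pairs of downstream clusters, after 206 genes. The tag counts were not scaled, so 0 on the log2 scale means equal counts and not equal binding. The median log2 ratio of NOVA1 over NOVA2 tags was -0.62 (-0.74 to -0.49), which is 1.54 times as many NOVA2 as NOVA1 tags. Scaling to the unique tag totals of the 2 proteins turned the sign, to 0.73. It moved 3' UTR pairs to 0.95, intron pairs to -0.69 and intergenic pairs to -0.53, so only differences between classes are read here.

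By this measure downstream pairs lay near 3' UTR pairs and far from intron pairs. The median log2 ratio was -0.40 (-0.45 to -0.35) over 2146 pairs in 3' UTRs, -2.04 (-2.08 to -2) over 3452 pairs in introns and -1.88 (-2 to -1.79) over 378 intergenic pairs. The median of the downstream pairs was thus 0.22 below that of 3' UTR pairs on the log2 scale, 1.42 above that of intron pairs and 1.26 above that of intergenic pairs. NOVA1 had the higher count in 78 of the 357 downstream pairs (21.8%), against 14.8% of all 6770 pairs, 32.2% in 3' UTRs and 2.03% in introns. NOVA2 had at least 2 times as many tags as NOVA1 in 130 pairs (36.4%, against 59.9% of all pairs), and NOVA1 at least 2 times as many as NOVA2 in 18 (5.04%, against 3.1%). These balances turned with scaling. Scaling adds the same amount to every log2 ratio, so the order of the class medians could not change. Scaled, NOVA1 had the higher count in 255 downstream pairs (71.4%), against 50.3% of all pairs, 84.9% in 3' UTRs and 24.7% in introns. NOVA1 was then at least 2 times higher in 136 downstream pairs (38.1%, against 24.1% of all pairs) and NOVA2 in 26 (7.28%, against 21.6%).

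**Figure D2:**
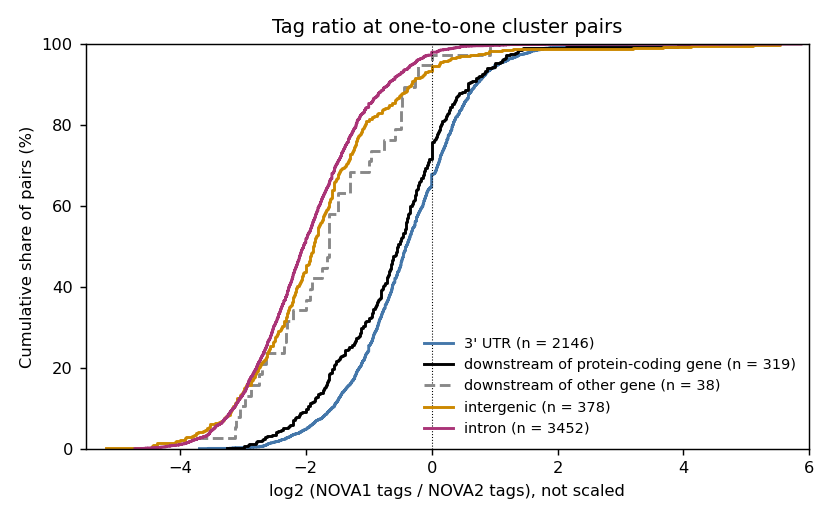
Cumulative share of cluster pairs (%) by log2 of NOVA1 over NOVA2 tags, not scaled, for downstream pairs after protein-coding and after other genes and for pairs in 3' UTRs, introns and intergenic sequence. The curve for protein-coding upstream genes (black, median -0.54) ran beside that of 3' UTRs (blue, median -0.40), and the dashed curve for other genes (median -1.64) ran beside those of intergenic sequence and introns.

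The kind of upstream gene went with the ratio. The 319 pairs after protein-coding genes had a median log2 ratio of -0.54 (-0.66 to -0.42). The 38 pairs after other genes had -1.64 (-2.21 to -1.30), and NOVA1 had the higher count in 1 of them. The median was -2.13 for 10 pairs after microRNA genes, -1.97 for 10 after processed transcripts, -1.64 for 7 after lincRNAs and -0.47 for 7 after snoRNAs. Among protein-coding genes the median log2 ratio was -0.35 (-0.68 to -0.14) in the first kb and -0.39 (-0.70 to -0.10) in the next. It was -0.56 (-0.75 to -0.35) from 2 to 5 kb and -0.89 (-1.22 to -0.51) from 5 to 10 kb. The intervals of neighbouring bins overlapped. The median NOVA1 count differed little between the bins, at 19, 17, 18.5 and 17 tags, while the median NOVA2 count was 22, 32, 28 and 38 tags. NOVA1 counts lay near the minimum of 10 in other classes too, with medians of 15 in intron pairs and 21 in 3' UTR pairs. They had little room to fall, so which protein made the difference between bins cannot be told.

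The same comparison could be made inside single genes, where scaling of the lists cancels. The RNAs in the places compared can still differ, and a downstream tag may come from a separate transcript. For 62 protein-coding genes with a pair both downstream and in their own introns, the downstream log2 ratio was higher in 53 and lower in 9. The median difference was 1.48 (1.09 to 1.88). In the 11 genes with at least 3 pairs in both places, a subset chosen after the values were seen, the downstream ratio was higher in 11, by 1.22 to 2.75. For 31 genes with a pair both downstream and in their own 3' UTR, it was higher downstream in 13 and lower in 18, with a median difference of -0.36 (-0.65 to 0.52). With at least 3 pairs in both places, 0 genes were left for the comparison with the 3' UTR. Of the 19 genes with pairs in all 3 places, the downstream ratio was closer to that of the 3' UTR than to that of the introns in 14 (73.7%, 51.2 to 88.2). In each of these 19 genes the 3' UTR value rested on 1 or 2 pairs, so single genes are uncertain. Kalrn, a guanine nucleotide exchange factor of synapses, was among the 9 genes that went the other way, with -2.13 downstream (2 pairs) and -1.75 in its introns (6 pairs).

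**Figure D3:**
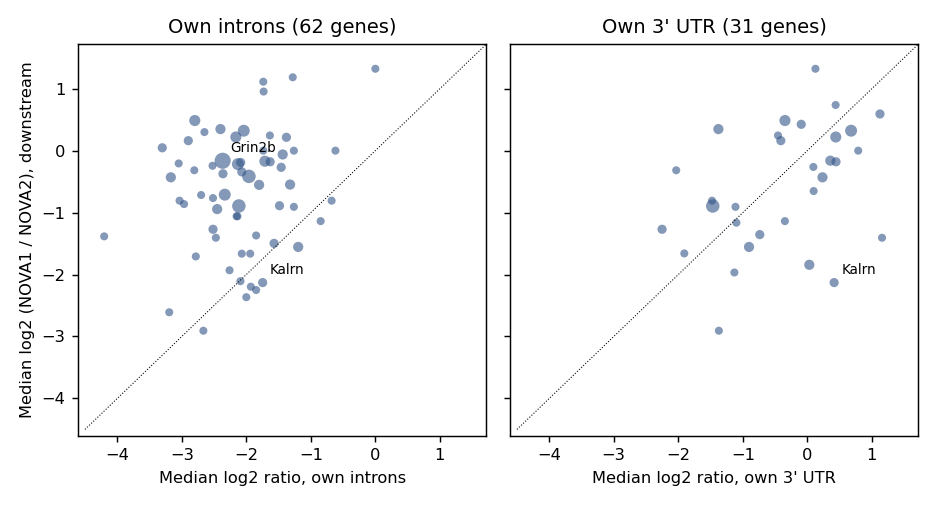
Median log2 ratio of NOVA1 over NOVA2 tags downstream of a gene (y axis) against that in the same gene's introns (left, 62 genes) or annotated 3' UTR (right, 31 genes). Each point is a gene, its area grows with the number of downstream pairs, and the dotted line marks equality. On the left 53 points lie above the line, and on the right 13 do.

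Some upstream genes had clusters within their annotated limits as well. Of the 231 protein-coding upstream genes in the NOVA1 list, 65 (28.1%, 22.7 to 34.3) also had a NOVA1 cluster in their annotated 3' UTR, against 8.09% of all protein-coding genes. Of the 473 in the NOVA2 list, 142 did (30.02%, 26.1 to 34.3), against 9.29%. Among clusters of at least 20 tags these shares fell to 18.5% (12.5 to 26.4) of 119 genes against 4.45% for NOVA1, and to 21.7% (17.1 to 27.0) of 263 genes against 5.81% for NOVA2. Over either list, 10.5% of protein-coding genes had a 3' UTR cluster. These backgrounds also count genes without any cluster, so they are low for genes with a cluster. Of 5348 protein-coding genes with any cluster inside or downstream, 2358 had a 3' UTR cluster in either list. Of the 506 upstream genes, 336 had none, so the share with a 3' UTR cluster was lower than among the 5348. An intron cluster of the same list was present in 35.5% and 59.4% of the upstream genes. In 46.3% and 30.2% of them the list held no cluster anywhere inside the gene, so the downstream clusters were its only ones. Neither share was computed over all protein-coding genes, so the intron shares and these have no background and are not read further. Conversely, 3.59% of genes with a NOVA1 cluster in the 3' UTR and 6.83% of those with a NOVA2 cluster there had a downstream cluster as well. Of all 22380 protein-coding genes, with or without any cluster, 231 had a NOVA1 and 473 a NOVA2 downstream cluster.

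The annotated ends of the upstream genes differed from those of other bound genes. A poly(A) signal, searched as AATAAA or ATTAAA on the gene strand, was present in the last 40 nt of 252 of the 506 protein-coding upstream genes (49.8%, 45.5 to 54.1). It was present in 1772 of 2188 genes that had a 3' UTR cluster and no downstream cluster (81.0%, 79.3 to 82.6), and in 63.4% of the remaining protein-coding genes. In windows of 40 nt near downstream clusters 4.83% held either hexamer. The share was 40% (33.3 to 47.1) for the 190 genes with the nearest downstream cluster within 1 kb and 55.7% (50.2 to 61.1) for the other 316. It was 33.3% (24.2 to 43.9) for the 84 protein-coding genes with 5 or more downstream clusters. A match is a string in the reference sequence and does not show that the site is used.

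The annotated 3' UTRs of upstream genes were also shorter than those of genes bound in the 3' UTR. The longest annotated 3' UTR had a median length of 1283 nt (1196 to 1358) in 466 upstream genes. It was 2264 nt (2165 to 2348) in the 2188 genes with a 3' UTR cluster and no downstream cluster, and 709 nt in the remaining protein-coding genes. The other 40 upstream genes (7.91%) had no annotated 3' UTR, against 0 of the 2188, which all have one by the way they were chosen, and 11.96% of the remaining genes. For upstream genes without a 3' UTR cluster the median was 920 nt (739 to 1042). A longer annotated 3' UTR also offers more sequence for a cluster inside it, and the part of this in the difference was not tested.

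**Figure D4:**
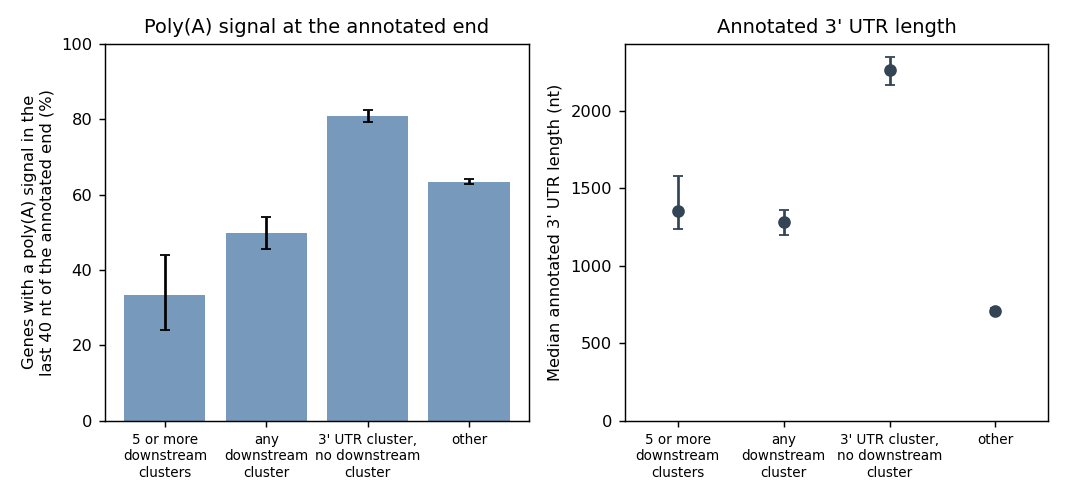
Left, share of protein-coding genes (%) with AATAAA or ATTAAA in the last 40 nt of the annotated end. Right, median length of the longest annotated 3' UTR (nt) in genes that have one, both with 95% intervals. Genes with downstream clusters had the signal in 49.8% (33.3% with 5 or more clusters) and a median 3' UTR of 1283 nt. Genes with a 3' UTR cluster and no downstream cluster had 81.0% and 2264 nt.

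In some genes downstream clusters followed each other from the annotated end on. Among the 260 protein-coding genes with 2 or more downstream clusters in both lists together, no gap between the annotated end and successive clusters was above 2 kb in 135 (51.9%, 45.9 to 57.9). A further 120 genes had a single cluster within 2 kb of the end. Overlapping clusters of the lists were counted separately, so 2 clusters of a gene may be a single position. Over all downstream clusters, 44.9% (NOVA1) and 41.1% (NOVA2) lay within 2 kb of the end. No expected share of runs was computed, so the 51.9% has nothing to be set against. Followed up to their earliest gap above 2 kb, such runs reached beyond 2 kb in 83 genes and beyond 5 kb in 13. Beside Grin2b, Slc8a1, Bmpr2, Mmp16 and Sox11 these were 9830001H06Rik, Xkr4, Zfp871, Igf1r, Cdh12, Ptpn4, Nrg3 and Kalrn.

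Grin2b encodes the GluN2B subunit of the NMDA receptor and was followed by the most downstream clusters, 25 NOVA1 and 16 NOVA2. They ran from 369 to 9959 nt past its annotated end with no gap above 613 nt, and the next gene on the strand began 370118 nt further on. NOVA1 clusters had between 10 and 101 tags and NOVA2 clusters between 10 and 331. Of these, 8 NOVA1 clusters and 1 NOVA2 cluster had no overlap in the other list. Its 11 downstream pairs had a median log2 ratio of -0.16, against -2.37 for the 13 pairs in its introns.

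Slc8a1, which encodes a sodium-calcium exchanger of the plasma membrane, came next with 11 NOVA1 and 19 NOVA2 clusters. It had no annotated 3' UTR beyond the stop codon, and the clusters began 186 nt past its end and reached 9805 nt, with no gap above 1378 nt. A NOVA2 cluster of 662 tags (chr17:81784263-81785173, minus strand) overlapped NOVA1 clusters of 111 and 339 tags. The next pair had 227 NOVA1 and 403 NOVA2 tags. Beyond 4 kb the clusters had 10 to 65 tags. The 7 downstream pairs of Slc8a1 had a median log2 ratio of -0.42, and its intron pairs -1.96.

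Bmpr2, a receptor for bone morphogenetic proteins with an annotated 3' UTR of 374 nt, was followed by 14 NOVA1 and 14 NOVA2 clusters between 81 and 6597 nt. The highest had 573 NOVA2 tags (chr1:59931050-59931723, plus strand) and 220 NOVA1 tags (chr1:59931152-59932056). The 7 pairs ranged in log2 ratio from -2.54 to 0.85, with a median of -1.48, so single positions after 1 gene differed in which protein had more tags. Sequences of 2 of the 28 clusters had further copies.

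Ube3a encodes a ubiquitin ligase that neurons express from the maternal allele. Its 8 NOVA1 and 15 NOVA2 clusters lay between 909 and 4808 nt past its end. The NOVA1 clusters had 10 to 66 tags and the NOVA2 clusters 11 to 88, and the 5 pairs had a median log2 ratio of 0. Mmp16, a membrane-bound matrix metalloproteinase, had 7 NOVA1 clusters of up to 47 tags and 12 NOVA2 clusters of up to 96 tags. These formed a run to 6249 nt and a separate NOVA2 cluster that ended at 10060 nt. Sox11, a transcription factor of immature neurons, is a gene without introns, and its 7 NOVA1 and 9 NOVA2 clusters lay between 617 and 6088 nt. At its strongest position (chr12:28021607-28022162, minus strand) NOVA2 had 869 tags and NOVA1 134. No cluster of either list lay inside the annotated 3' UTR of Sox11, which is 524 nt long.

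**Figure D5:**
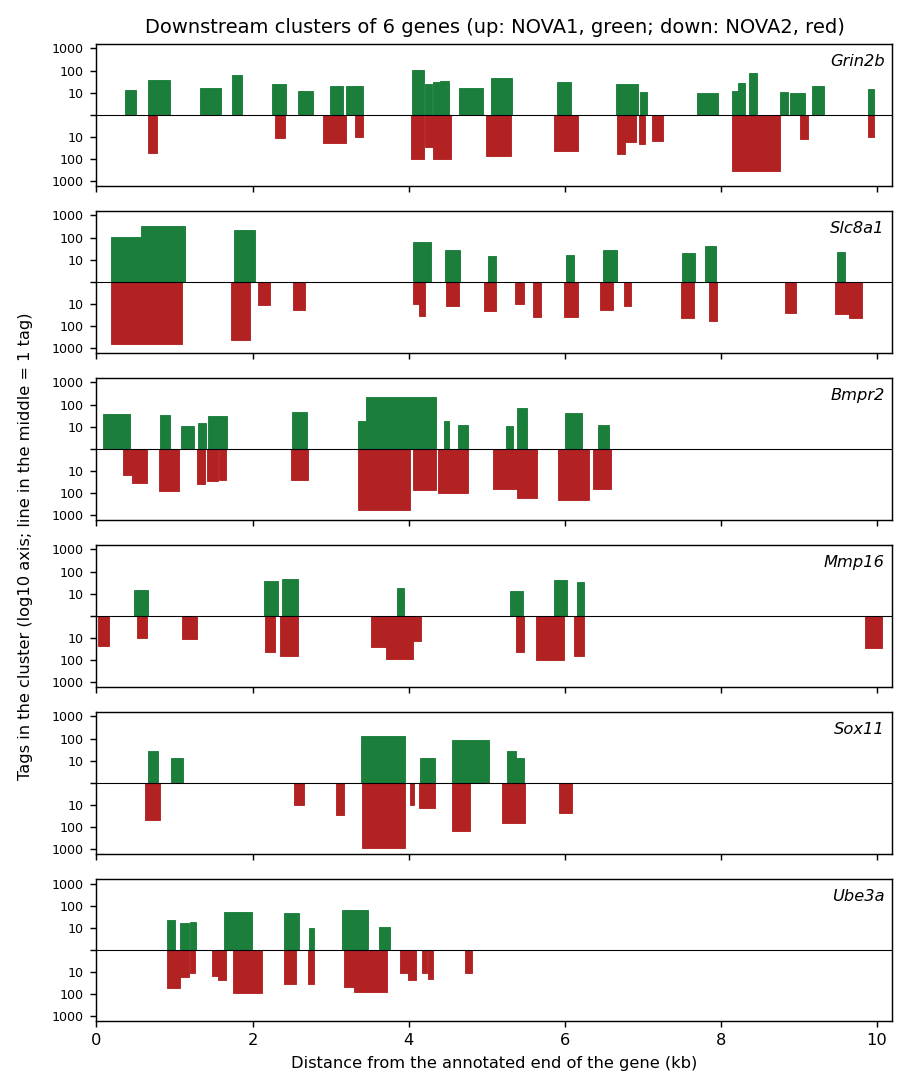
Downstream clusters of Grin2b, Slc8a1, Bmpr2, Mmp16, Sox11 and Ube3a by distance from the annotated end of the gene (kb). Each block is a cluster drawn to its width, with NOVA1 tags upward (green) and NOVA2 tags downward (red) on log10 axes that start at 1 tag, and the runs reach from the first kb to 9959 nt at Grin2b and 4808 nt at Ube3a.

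Other genes among those with the most downstream clusters were Atp8a2, a phospholipid flippase (9 NOVA1 and 6 NOVA2 clusters), Enah, a regulator of actin filaments (7 and 8), and 9830001H06Rik (11 and 4). The 15 clusters of Atp8a2 began 2074 nt past its end and reached 8987 nt. Those of Enah lay within 2068 nt, and all 15 overlapped a cluster of the other list. At 9830001H06Rik a NOVA2 cluster of 703 tags overlapped NOVA1 clusters of 171 and 38 tags, and 5 NOVA1 clusters had no NOVA2 overlap. The noncoding gene 2900056M20Rik on the X chromosome had 5 NOVA1 and 10 NOVA2 clusters, with a median log2 ratio of -0.75 over 5 pairs.

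Mir493, a microRNA gene of the imprinted cluster on chromosome 12, was followed by 6 NOVA1 and 11 NOVA2 clusters between 418 and 4549 nt. Their highest tag counts were 41 and 154, and the 2 pairs had log2 ratios of -2.97 and -1.74. Nearby Mir433 had a pair with 23 NOVA1 and 200 NOVA2 tags (log2 ratio -3.12). Clusters on chromosome 12 made up 10 of the 20 NOVA1 and 19 of the 70 NOVA2 clusters after microRNA genes. Clusters on chromosome 7 made up 11 of the 13 NOVA1 and 17 of the 22 NOVA2 clusters after snoRNA genes. Snord64, in the imprinted region that also holds Ube3a but on the other strand, had a NOVA1 cluster of 78 tags 8908 nt away that overlapped a NOVA2 cluster of 559 tags. MicroRNAs and snoRNAs are cut from longer host transcripts, so the end of such a gene in the annotation is not the end of its transcript.

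Some of the highest NOVA1 clusters had sequences with further copies in the genome. This was a trait of those few clusters and not of the list. Over all downstream clusters, no further copy was found for 91.2% in the NOVA1 list and 88.2% in the NOVA2 list. The highest NOVA1 cluster lay 7333 nt past Tra2a, a splicing regulator, with 980 tags against 28 for NOVA2, and its sequence had 3 further copies. The next lay 8324 nt past Rimbp3, with 750 tags against 50, 2 further copies and 0 YCAY. A cluster of 557 tags beside mmu-mir-689-2 had no NOVA2 overlap and 12 further copies. Whether reads could be placed uniquely at these positions was not tested. Among pairs with at least 50 tags together, Tra2a and Rimbp3 had the highest log2 ratios, 5.13 and 3.91.

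The highest NOVA1 downstream cluster without further copies followed Mest, an imprinted gene of the hydrolase family, with 656 NOVA1 and 566 NOVA2 tags at overlapping clusters (chr6:30700384-30701222, plus strand, for NOVA1). Copg2 lies on the opposite strand there, and 5 of the 7 NOVA1 clusters after Mest had no NOVA2 overlap. After it and Slc8a1 came Pgap1, an enzyme that remodels glycosylphosphatidylinositol anchors, with 307 NOVA1 and 478 NOVA2 tags between annotation entries of that name.

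None of the 5 highest NOVA2 downstream clusters had a further copy. They followed Lnpep, an aminopeptidase of insulin-responsive vesicles (919 NOVA2 and 146 NOVA1 tags), Sox11 (869 and 134), the lincRNA A330076H08Rik (839 and 129), Kcnma1, which encodes a calcium-activated potassium channel (718 and 151), and 9830001H06Rik. Each was chosen for a high NOVA2 count, so the order of the proteins at these positions is not a finding.

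At the ends of the ratio scale, 3 of the 5 lowest pairs with at least 50 tags together followed Gm13390, a noncoding gene on chromosome 2. Their counts were 23 NOVA1 against 304 NOVA2 tags, 18 against 155 and 29 against 239, which are log2 ratios of -3.72, -3.11 and -3.04. At the lowest of them NOVA1 had 7.03% of the tags of the pair (exact 95% interval 4.51 to 10.4). The others were Mir433 and A130050O07Rik (23 against 220). At the high end, after Tra2a and Rimbp3, came Gm5567 (44 NOVA1 against 10 NOVA2 tags), mt-Nd5 on the mitochondrial chromosome (75 against 29, 1 further copy) and Sstr1, a somatostatin receptor (36 against 14). NOVA1 had 81.5% (68.6 to 90.7) of the tags at Gm5567 and 72.0% (57.5 to 83.8) at Sstr1.

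Among clusters without overlap in the other list, the highest NOVA1 count after mmu-mir-689-2 was 197 tags at mmu-mir-2134-4, where the sequence had 11 further copies. Then came 60 tags at Grin2b, 45 at Acvr2b, an activin receptor, and 35 at Arl10. The Acvr2b cluster held 0 YCAY. The highest NOVA2 counts were 115 tags at Mir181b-1, 110 at Tmem132b, 98 at Mical2, 90 at Atf7 and 87 at D10Wsu102e. The farthest clusters with at least 30 tags lay 9835 nt past C230004F18Rik (51 tags) and 9170 nt past Grm3 (56 tags) in the NOVA1 list. In the NOVA2 list they lay 9796 nt past Ccdc104 (46 tags), 9654 nt past Snord64 (68 tags), 9649 nt past Slc8a1 (41 tags), 9641 nt past Mir690 (31 tags) and 9596 nt past C230004F18Rik (71 tags).

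Downstream clusters were then counted in lists of neuronal genes. As background, 9.46% of the protein-coding genes with any cluster inside or downstream had a downstream cluster. Among 20 glutamate receptor genes with a cluster, 5 had one downstream, which were Grin2b, Gria2, Grik2, Grm3 and Grm5. Among 16 genes for GABA and glycine receptors 3 did (Gabra2, Gabrb1 and Glra3), and among 26 ion channel genes 9 did. The counts were 5 of 28 axon guidance genes, 5 of 23 genes of synaptic scaffolds and vesicles, 2 of 18 cortical transcription factor genes and 1 of 28 genes for RNA-binding proteins. With so few genes per list these counts are given without a comparison between lists.

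In the glutamate receptor list, Grm3, a metabotropic receptor with 6 NOVA1 and 8 NOVA2 downstream clusters, had a pair of 132 NOVA1 and 481 NOVA2 tags 809 nt past its end. Its 5 pairs had a median log2 ratio of -0.71, against -2.33 in its introns. Grik2, a kainate receptor subunit, had 4 NOVA1 and 7 NOVA2 clusters from 2569 nt on, with up to 30 and 234 tags. Gria2, an AMPA receptor subunit, had 5 NOVA2 clusters with 122 tags in all and 0 in the NOVA1 list, although its annotated 3' UTR held 7 NOVA1 and 6 NOVA2 clusters. Grm5 had a single NOVA1 cluster of 11 tags. Among the inhibitory receptors, Gabrb1 had 4 NOVA1 clusters with 107 tags in all and 5 NOVA2 clusters with 102, starting 2182 nt past its end. Gabra2 had 2 NOVA1 clusters with 89 tags and 3 NOVA2 clusters with 82, and its 2 pairs had a median log2 ratio of 0.05 against -3.30 in its introns. Sequences of 2 of the 5 clusters of Gabra2 had further copies. Glra3 had a single NOVA1 cluster of 10 tags.

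Of the ion channels, Kcnma1 had the most tags, with 849 NOVA2 tags in 3 clusters and 266 NOVA1 tags in 4, within 3163 nt of its end. Its downstream log2 ratio (-2.25, 1 pair) was lower than that of its introns (-1.85). Kcnb2 and Kcnq3, voltage-gated potassium channels, had 6 downstream clusters each, with 52 NOVA1 and 136 NOVA2 tags and with 28 and 70 tags. Cacna1c, a calcium channel subunit, had a pair with more NOVA1 than NOVA2 tags (log2 ratio 0.95). Kcna2 had 4 clusters, and Cacna1e and Scn8a 1 each.

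In the axon guidance list, Epha5, an ephrin receptor, had 5 NOVA1 and 4 NOVA2 clusters between 586 and 2957 nt. A NOVA2 cluster of 219 tags overlapped NOVA1 clusters of 35 and 22 tags, and the 2 pairs of Epha5 had 20 NOVA1 and 16 NOVA2 tags and 10 and 10 tags. Dcc, Robo2, Efna5 and Plxna2 had 1 NOVA2 cluster each, with 21, 11, 15 and 59 tags. Among synaptic genes, Dlg2, a postsynaptic scaffold, had a NOVA2 cluster of 567 tags that overlapped NOVA1 clusters of 23 and 65 tags, 525 nt past its end. Shank1, another scaffold, had a pair of 128 NOVA1 and 334 NOVA2 tags 520 nt past its end. Snap25 had 2 and Homer1 1 cluster, NOVA2 alone.

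Nova2 itself had 2 NOVA1 and 2 NOVA2 downstream clusters. A pair 512 nt past its annotated end had 19 NOVA1 and 60 NOVA2 tags, a log2 ratio of -1.66, beside -1.91 for the pairs in its annotated 3' UTR. Pou3f3, a transcription factor of upper-layer cortical neurons, had 1 NOVA1 cluster of 16 tags and 5 NOVA2 clusters of up to 29 tags between 519 and 2318 nt.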

How the data were processed

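NOVA1 and NOVA2 HITS-CLIP libraries of mouse cortex, 3 per protein, were analysed from 2 deposited lists of clusters. The authors aligned reads to mm9 with Novoalign (version not given in the sources used here), collapsed duplicates, grouped tags of the same strand into clusters, and kept clusters with tags from at least 2 libraries of a protein. The deposited value of a cluster is a tag count, summed by the authors across the 3 libraries without scaling to depth, and the lowest is 10. The lists do not say whether it counts all tags of the cluster or its peak height, the measure on which the authors set their minimum. The lists do not give library depth, and the same minimum of tags reaches weaker sites where sequencing was deeper.

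Clusters were set against GENCODE vM1 on the NCBIM37 (mm9) genome, and 0 ended past a chromosome end. The class holding the majority of a cluster's nucleotides on its strand was used, with exons (coding sequence, then 3' UTR, then other exons) before introns, introns before the 10 kb downstream of a gene, and that before the 10 kb upstream. Clusters of the lists were joined where 1 nt or more overlapped on a strand. The exact binomial interval was used for shares of tags within a pair, Wilson intervals for other shares and order statistics for medians, all at 95%. Further copies were sought with BLAST+ 2.17.0, and other steps used Python 3.11.15, pandas 2.3.3, NumPy 2.4.6, SciPy 1.17.1, pysam 0.24.0 and matplotlib 3.10.9.

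On simulated data 2000 of 2000 clusters were given the class they were placed in, 657 of 657 downstream distances and 1500 of 1500 planted YCAY were recovered, and intervals of a median and of a share held the true value in 96.2% and 94.8% of 500 sets.

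The clusters, gene lists and comparisons were chosen with earlier results of these data known. Named were the 10 upstream genes with the most clusters (11 with ties), the 5 highest clusters of each list, the 5 highest without overlap, the 5 highest and 5 lowest ratios among pairs with at least 50 tags together, the 5 farthest clusters with at least 30 tags, and members of the gene lists, of which a few are not reported here. Pgap1, Kalrn, Scn8a's annotation, the genes listed for long runs and the lengths of annotated 3' UTRs were added after values were seen. RNA-seq libraries and clusters below 10 tags were not used here.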

Additional observations from a re-analysis of the deposited data

How the results depend on the processing

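Of 57 values under other settings for 14 results, 38 lay inside the 95% interval printed in the report, 18 moved outside it and 1 turned its sign. The log2 ratio at downstream pairs was 0.73 after scaling to the unique tag totals, against -0.62 unscaled. With a limit of 5 kb the downstream share was 4.75% (NOVA1) and 2.43% (NOVA2), with 20 kb 6.59% and 3.85%, with protein-coding upstream genes only 5.26% and 2.70%, and with downstream clusters without further copies only 5.31% and 2.85%. At 20 or more tags the NOVA1 share was 6.31%, and upstream genes with a 3' UTR cluster fell to 18.5% (NOVA1) and 21.7% (NOVA2). The median NOVA1 distance with 1 value per upstream gene was 2066 nt. With NOVA2 clusters of at least 25 tags the overlap was 50.3% (NOVA1) and 62.4% (NOVA2). For the poly(A) signal, AATAAA alone gave 37.9% of upstream genes and 67.3% of genes with a 3' UTR cluster and no downstream cluster. A window of 60 nt gave 83.1% of the latter. The difference to introns of the same gene was 1.91 with at least 3 pairs in both places, a setting chosen after seeing the data, as were 2 others that stayed within the interval (1.45 without Grin2b, and a log2 ratio of -0.63 without clusters followed by a gene of the same name).

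No paired analysis was possible because each deposited value pools the libraries of a protein, and no library was left out for the same reason. The causes of the moves were not tested, except that a narrower limit or a higher minimum of tags keeps fewer clusters. Depth limits the lists to clusters of at least 10 tags, and a position without a cluster is not shown to be unbound.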
